A study of Mus musculus with 34 samples.

Results

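Embryoid bodies and cells treated with retinoic acid were compared with undifferentiated TT2 embryonic stem cells by DNA methylation at CpG islands. The 3 arrays were chosen by their labels, out of 34 mouse arrays, and each condition had 1 array. TT2 is a mouse embryonic stem (ES) cell line. The embryoid bodies were labelled as made from TT2, and the study describes them as hanging-drop aggregates grown without LIF, the factor that holds ES cells undifferentiated. The retinoic acid treated cells, called RA cells from here on, were also labelled TT2; the study's methods name J1 as the treated line, while another passage of the study names TT2. The treatment was meant to give neuro-ectoderm. The remaining arrays were 16 of adult tissue (colon, pancreas, brain, kidney, liver, lung, muscle and spleen, 2 arrays each), 5 of whole embryos of 8.5, 9.5, 10.5, 11.5 and 12.5 days, the ES lines EB5 and J1, endoderm (2 arrays) and mesoderm (1 array) differentiated from EB5 with Activin and sorted, 2 teratomas labelled J1, for which the study's methods name other ES lines, and pancreatic beta cells, Min6 and aTC cells.

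CpG islands are stretches of DNA rich in CG pairs that cover the start of many genes and are mostly free of methylation in normal tissue. When methyl groups are placed on an island at a gene's start, the gene is usually silent, and islands inside genes, at germline genes and at imprinted genes are the usual places where methylation is found. ES cells that leave the undifferentiated state are known to gain methylation at some islands through the enzymes Dnmt3a and Dnmt3b, and imprinted islands normally carry methylation on the copy from a single parent in every tissue.

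Methylated DNA was pulled down with an antibody to methylated cytosine and hybridized against input DNA. Each probe's log10 ratio of bound to input signal was turned into a Z-score within its array, and an island's score is the mean Z of its probes, in units of the array's standard deviation over all probes. Islands were runs of at least 3 probes with gaps of at most 500 bases on build mm9, and 13651 of them had a score on all 34 arrays, with a median of 5 probes. The study calls an island methylated above 0.75 and unmethylated below 0, and a difference of 0.75 between arrays is the threshold used here. Input signal, as the median over probes, came to 7.15 times background in TT2, 5.09 in embryoid bodies and 3.65 in RA cells, and the bound signal 3.31, 3.54 and 2.75 times. The 3 arrays lay on 3 slides and were scanned on 3 days, so that treatment, slide and scan day cannot be told apart. TT2 shared its slide with the embryo of 8.5 days and the embryoid bodies theirs with brain 2, and neither treatment shared a slide or scan day with endoderm, mesoderm, Min6 or aTC.

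Most differences past 0.75 pointed to higher scores after either treatment. Over all islands the median difference was slightly negative, -0.045 for embryoid bodies and -0.041 for RA cells. Embryoid bodies scored at least 0.75 above TT2 at 980 islands (7.18% of 13651) and at least 0.75 below it at 259 (1.90%). RA cells were higher at 778 islands (5.70%) and lower at 221 (1.62%). At 358 islands (2.62%) both were higher and at 36 (0.264%) both were lower, with TT2 as the array common to the differences. The 358 made up 36.5% of the embryoid body gains and 46.0% of the RA gains. Among all past the threshold, the share that was higher was 79.1% for embryoid bodies and 77.9% for RA cells. This balance depends on the processing: with the median of probes RA cells were higher at 945 islands and lower at 670 and embryoid bodies at 1151 and 619, and without dim probes RA cells at 618 and 372. At a threshold of 0.5 the counts were 1762 and 1126 for embryoid bodies and 1570 and 1170 for RA cells, and with J1 as the reference RA cells were higher at 729 and lower at 552.

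In number, these totals lay within the spread of replicate arrays. Past 0.75 were 1239 islands between embryoid bodies and TT2 and 999 between RA cells and TT2. The same count between the 2 arrays of the 10 replicated groups reached from 66 in colon to 1528 in lung, with a median of 1087.5. Of these pairs, 4 had more islands past 0.75 than the embryoid bodies and 6 had more than the RA cells, and the share of differences pointing 1 way reached 80.3% in colon with its 66 islands. In lung, the next most uneven pair, 469 were higher and 1059 lower, so pairs with totals near those of the treatments were less one-sided than embryoid bodies and RA cells were. The totals alone therefore do not stand out from replicate spread, and islands are given with their scores in arrays that the differences did not use and with the widest difference between 2 replicate arrays at the same island.

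**Figure D1:**
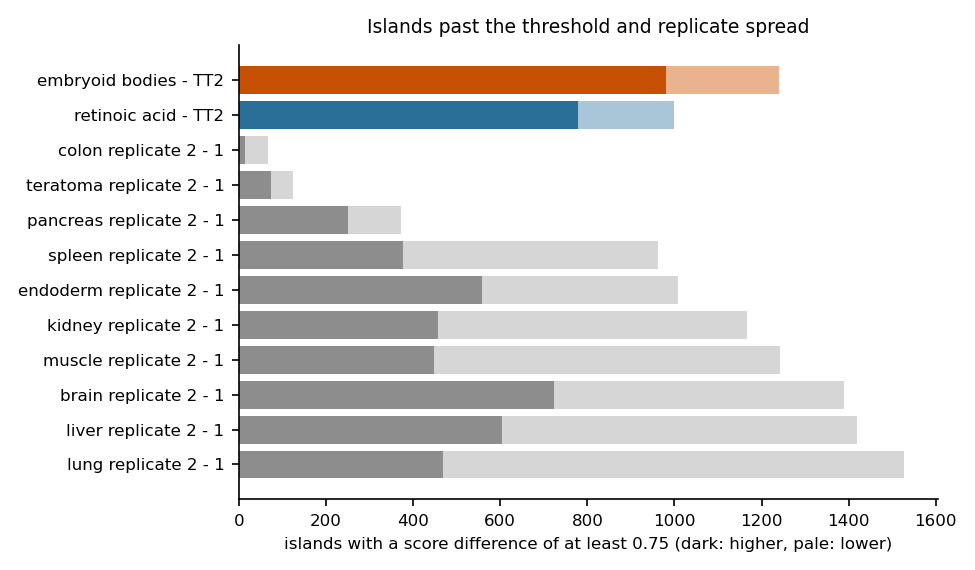
Number of islands with a score difference of at least 0.75 (horizontal axis; dark bars higher, pale bars lower) for embryoid bodies and RA cells against TT2 and between the 2 arrays of each of 10 replicated groups. The totals of 1239 and 999 lie between those of colon, 66, and lung, 1528.

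The level an island had in TT2 separated the treatments. Of 797 islands that scored 1.5 or more in TT2, embryoid bodies were lower at 153 and higher at 43, while RA cells were lower at 6 and higher at 128. Between 0.75 and 1.5 in TT2 lay 662 islands, and here embryoid bodies were higher at 242 (36.6%) and RA cells at 130 (19.6%). Of 2614 islands below -0.5 in TT2, 142 were higher in embryoid bodies and 246 in RA cells. A whole-array measure moved along with this: the distance between the median of 1011 islands that are high and of 4172 that are low on all adult arrays was 2.5 in TT2, 2.79 in embryoid bodies and 3.03 in RA cells, and its part in the counts was not tested. Islands above 0.75 numbered 1459 in TT2, 2273 in embryoid bodies and 1689 in RA cells. From below 0 in TT2 to above 0.75 went 111 islands in embryoid bodies, 66 in RA cells and 24 in both.

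**Figure D2:**
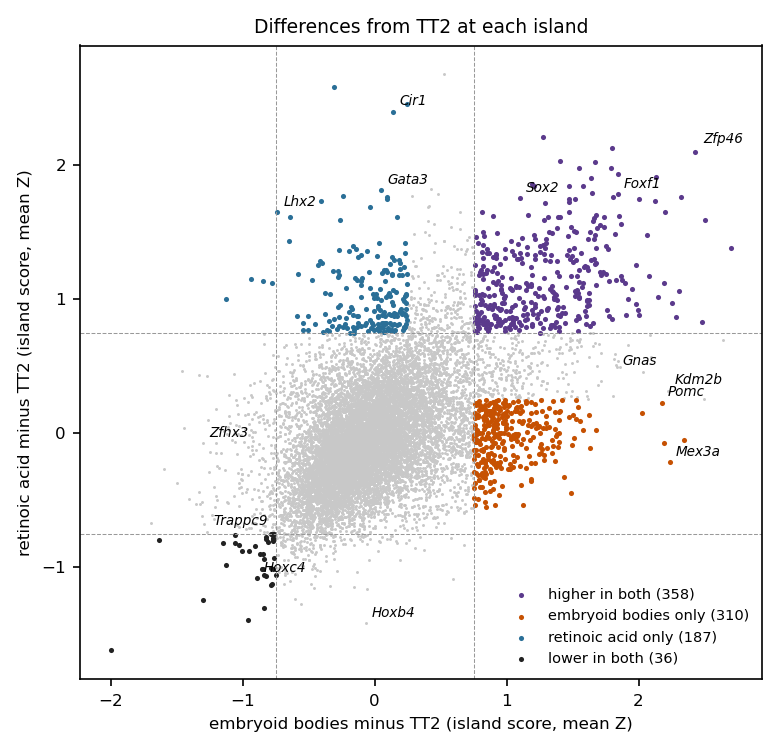
Score difference from TT2 at each of 13651 islands, embryoid bodies on the horizontal and RA cells on the vertical axis, in Z-score units; colours mark the islands higher in both (358), higher in 1 treatment only, or lower. Only 4 islands lie past 0.75 in opposite directions, all 4 lower in embryoid bodies and higher in RA cells.

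The 358 islands higher in both treatments had scores in other arrays that lay near those of differentiated cells. Their median score was 0.52 in TT2, 1.92 in embryoid bodies and 1.64 in RA cells. In arrays the differences did not use it was 0.41 in EB5, 1.49 and 1.67 in endoderm, 1.63 in mesoderm and 1.47 and 1.70 in the teratomas. Over the 5 embryos the median ran from 0.62 to 1.1, and over the 16 adult arrays from 1.31 through 1.70 to 2.13. The order of TT2 and the treated arrays was set by the choice of these islands. EB5 was low like TT2, the embryos lay somewhat higher, and every other differentiated culture and adult array lay above the embryos. J1 stood with the latter at 1.74, but its scanner file is doubtful, since its log10 ratios correlated with its deposited column at only 0.113 over probes.

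Against EB5 in place of TT2, 232 of the 358 were again at least 0.75 higher in both treatments. At 229 the embryoid body difference, and at 206 the RA difference, was larger than between any replicate pair at that island, and at 174 both were. Over all 13651 islands these numbered 1928, 1885 and 786, and the 358 were chosen by their differences. The adult mean exceeded 0.75 at 240 of the 358 (67.0%, against 11.7% of all islands) and the embryo mean at 180. Most lay inside genes: 261 (72.9%) against 61.6% of all islands. Of the 317 with a known distance from a gene's start, 88 (27.8%) lay within 1000 bases of it, against 75.7% of all islands. With quantile normalization 242 of the 358 remained past 0.75 in both, with normexp background correction 264, and with the median of probes 315.

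**Figure D3:**
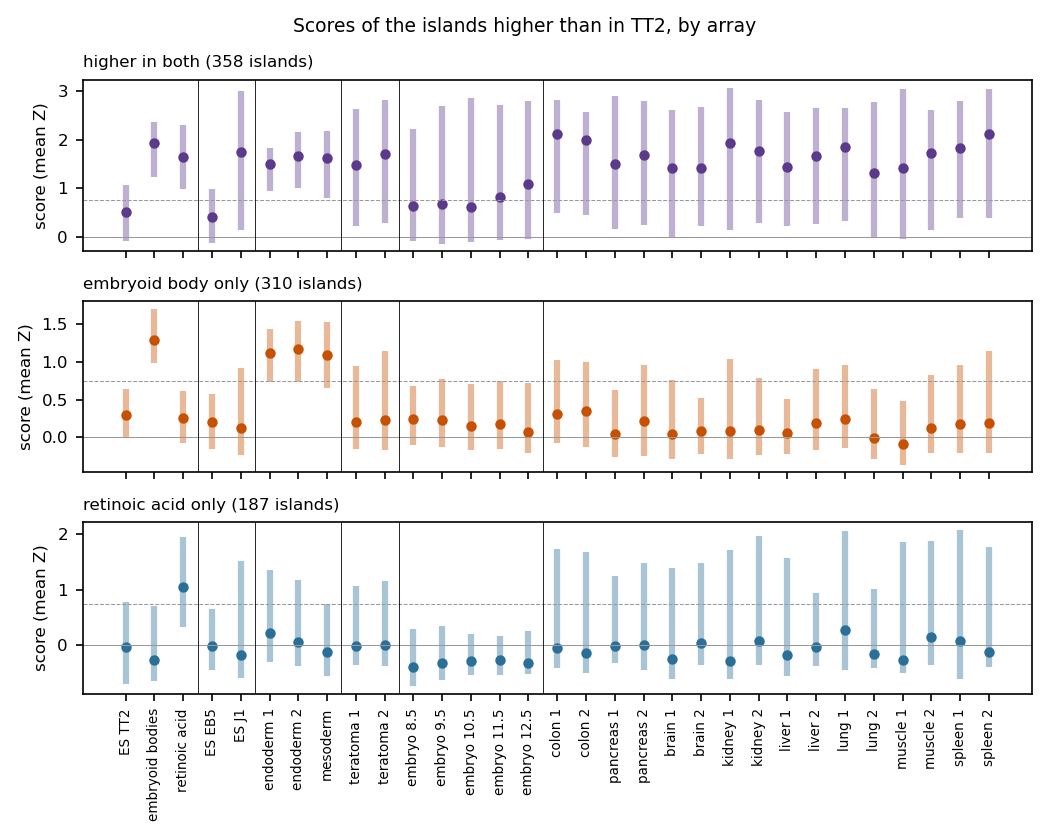
Island scores (vertical axis; point, median; bar, interquartile range of islands) in each array, pancreatic cells aside, for the islands higher in both treatments (358), in embryoid bodies only (310) and in RA cells only (187, the other difference under 0.25 in both cases). The upper panel is high in all differentiated and adult arrays, the middle panel in embryoid bodies, endoderm and mesoderm, and the lower panel in RA cells at a median of 1.06.

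The 8 largest shared gains among islands with a known gene name each exceeded every replicate pair in both treatments. With J1 as the reference, a file in doubt, the RA difference changed sign at 6 of the 8: Zfp46 (-1.86), Zfp319 (-0.78), Keap1 (-0.41), Cavin1 (-0.23), Adgra2 (-1.67) and Cdr2l (-0.76). Zfp46 encodes a zinc finger protein, and its island lies inside the gene at chr4:135846129-135846928 (mm9). Zfp46 scored 0.098 in TT2, 2.53 in embryoid bodies and 2.20 in RA cells, and -0.045 and 4.06 in EB5 and J1. For Zfp46, endoderm gave 2.38 and 2.68, mesoderm 2.59, the teratomas 2.94 and 2.98, and beta cells, Min6 and aTC 2.28, 2.46 and 2.21. Zfp46 scored 1.59, 2.09, 2.52, 2.93 and 3.04 in the embryos in order of age, and 2.84 at the lowest, 3.41 at the median and 3.90 at the highest of the 16 adult arrays. The island was low in TT2 and EB5 and high on every other array. Its differences of 2.43 and 2.10 compare with 0.887 at most between replicate arrays.

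Zfp319, another zinc finger gene, scored 0.69 in TT2, 2.54 in embryoid bodies and 2.63 in RA cells, and all 10 of its probes were higher in both treatments. Keap1, the adaptor that marks the stress regulator Nrf2 for destruction, scored 0.74 in TT2, 2.54 in embryoid bodies and 2.87 in RA cells. Both islands lie inside their genes, at chr8:97851624-97852911 and chr9:21037852-21038539 (mm9). Adult arrays did not go under 2.76 at Zfp319 and 2.52 at Keap1, so that TT2 and EB5 (0.61 and 0.58) were the low arrays. Adgra2, an adhesion receptor needed for vessels of the brain, scored -0.40 in TT2, 1.91 in embryoid bodies and 1.36 in RA cells, and the lowest adult array gave 2.23. Cdr2l, a gene related to a cerebellar degeneration antigen, scored 0.35 in TT2, 2.47 in embryoid bodies and 2.08 in RA cells against an adult range of 1.67 to 3.27. For Cavin1, a coat protein of caveolae, the scores were 0.38 in TT2, 2.17 in embryoid bodies and 2.36 in RA cells. Its 5 embryos reached from 0.081 to 1.46 and adult arrays from 1.28 to 3.13, so that embryos sat nearer to TT2 than adult tissue did.

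Foxf1 and Clybl were high in the differentiated cultures and low in embryos. Foxf1 is a forkhead factor of the mesoderm around the gut, and the island lies downstream of it at chr8:123613269-123613779 (mm9). Scores at Foxf1 were 0.30 in TT2, 2.14 in embryoid bodies and 2.08 in RA cells. In the other ES lines and the EB5 derivatives, Foxf1 scored 0.20 in EB5, 0.78 in J1, 0.88 and 1.02 in endoderm and 1.49 in mesoderm. Foxf1 gave -0.27 and 0.031 in the teratomas, and -1.0, -0.53 and 1.47 in beta cells, Min6 and aTC. Embryos gave Foxf1 scores of -0.45, -0.82, -0.78, -1.01 and -0.53 by age, and adult arrays a lowest, median and highest score of -0.56, 0.45 and 0.85. Both treatments lay above all embryos and all adult arrays. In limma the 2 treated arrays were higher than the embryos by 2.83 (SE 0.276, adjusted p = 6.55e-08). Clybl, a mitochondrial enzyme, scored 0.044 in TT2, 1.85 in embryoid bodies and 1.81 in RA cells, with 1.74 and 1.77 in endoderm and 1.60 in mesoderm. Its embryos lay between -0.23 and 0.15, all below the treated arrays, a difference of 1.84 (SE 0.316, adjusted p = 3.48e-04) in limma.

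At 310 islands embryoid bodies were higher while RA cells stayed within 0.25 of TT2 or pointed the other way. These islands were also high in the cells made from EB5: the median score was 1.30 in embryoid bodies, 1.12 and 1.17 in endoderm and 1.09 in mesoderm. It was 0.29 in TT2, 0.26 in RA cells and 0.20 in EB5, and no embryo or adult array had a median above 0.34. The median over the 310 was 0.57 in Min6 and 0.92 in aTC. Against EB5, 245 of the 310 were at least 0.75 higher in embryoid bodies, and 215 differences exceeded every replicate pair. Over all islands, which are not independent, embryoid body scores correlated with those of mesoderm at 0.930 and of endoderm at 0.828 and 0.922, and with TT2 at 0.847. The adult mean was above 0.75 at 79 (25.5%). Within 1000 bases of a start lay 133 of the 262 with a known distance (50.8%), against 75.7% of all islands.

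Ski, a repressor of Smad signalling, shows this with an island downstream of the gene at chr4:154524560-154525290 (mm9). The Ski island scored -0.18 in TT2, 1.85 in embryoid bodies and -0.025 in RA cells, beside -0.79 in EB5 and -0.62 in J1. The Ski scores were 1.41 and 1.85 in endoderm, 1.65 in mesoderm, -0.59 and -0.72 in teratomas, and 0.48, 2.19 and 2.12 in beta cells, Min6 and aTC. By age, Ski scored -0.054, -0.41, -0.69, -0.56 and -0.95 in embryos, while adult arrays reached from -1.05 through a median of -0.66 to -0.21. Embryoid bodies, endoderm, mesoderm and the pancreatic lines Min6 and aTC were high, and RA cells and all embryos and adult arrays were below 0. The difference of 2.03 exceeded the 0.535 seen at most between replicates. Sdr39u1, a short-chain dehydrogenase gene, had the same order with 0.043 in TT2, 1.72 in embryoid bodies and 0.070 in RA cells, 1.86 and 1.95 in endoderm and at most -0.12 in adult arrays. Ptger2, a receptor for prostaglandin E2, scored -0.43 in TT2, 1.20 in embryoid bodies and -0.54 in RA cells on an island that begins 404 bases past the gene's start. Endoderm was high at Ptger2 with 1.27 and 1.69 and mesoderm lower with 0.32.

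Pomc, the precursor of corticotropin and melanocortins, scored -0.15 in TT2, 2.02 in embryoid bodies and 0.077 in RA cells, beside 1.64 in mesoderm and 1.18 and 1.54 in the teratomas. Embryos and adult arrays did not pass 0.32. In limma the treated arrays as a group were higher than embryos at Ski by 1.45 (SE 0.304, adjusted p = 0.00286), although the gain was in embryoid bodies and RA cells scored -0.025; without embryoid bodies (0.51) it is not called. Mex3a encodes an RNA-binding protein, and its island inside the gene scored 0.072 in TT2, 2.31 in embryoid bodies and -0.14 in RA cells. Adult tissue varied widely there, from 0.028 to 3.31, and a replicate pair differed by 2.02, close under the embryoid body difference of 2.24.

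At 187 islands RA cells were higher while embryoid bodies stayed within 0.25 of TT2 or pointed the other way. At another 233 RA gains the embryoid body difference lay between 0.25 and 0.75. Embryoid bodies, EB5 derivatives and normal tissue were low here: the median score was 1.06 in RA cells, -0.028 in TT2, -0.26 in embryoid bodies, -0.0096 in EB5, 0.21 and 0.055 in endoderm and -0.12 in mesoderm. Embryo medians ran from -0.39 to -0.26 and adult medians from -0.28 to 0.27. The pancreatic lines Min6 and aTC were the other high arrays, with 0.91 and 0.76, beside -0.068 in beta cells. All 5 embryos were below 0 at 109 of the 187, and at 6445 of all 13651 islands. Against EB5, 108 were at least 0.75 higher in RA cells, and at 106 the difference from TT2 exceeded every replicate pair. Quantile normalization kept 518 and normexp 422 of the 778 RA gains, against 785 and 772 of the 980 embryoid body gains.

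Gata3, a zinc finger factor of trophectoderm and of several organs, has an island upstream of its start at chr2:9803848-9804827 (mm9). Gata3 scored -0.91 in TT2, -0.87 in embryoid bodies and 0.90 in RA cells, and -0.49 and -0.89 in EB5 and J1. For Gata3, endoderm gave -0.13 and -0.48, mesoderm -0.39, the teratomas -0.40 and -0.47, and beta cells, Min6 and aTC -0.72, 1.39 and 1.03. Gata3 scored -1.20, -0.41, -0.27, -0.34 and -0.26 in the embryos in order of age, and -0.86 at the lowest, -0.38 at the median and -0.18 at the highest of the 16 adult arrays. RA cells, Min6 and aTC were above 0, and all other arrays were below. The RA difference of 1.82 compares with 0.608 at most between replicates. Skida1, a gene with a Ski/Dach domain, scored 0.014 in TT2, -0.39 in embryoid bodies and 1.75 in RA cells. All adult arrays were high at Skida1, from 1.27 to 3.00, and embryos low, from -0.66 to 0.22. With J1 as the reference, a file in doubt, the RA difference at Skida1 changed sign, to -0.84. Cir1, a corepressor in Notch signalling, scored 0.38 in TT2, 0.52 in embryoid bodies and 2.79 in RA cells, and its difference of 2.40 is hardly larger than the 2.40 of the widest replicate pair. Zfp423, a zinc finger factor of the midline of the brain, scored -0.87 in TT2, -0.78 in embryoid bodies and 0.89 in RA cells; a replicate pair differed more there (1.84) than RA cells and TT2 (1.76).

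**Figure D4:**
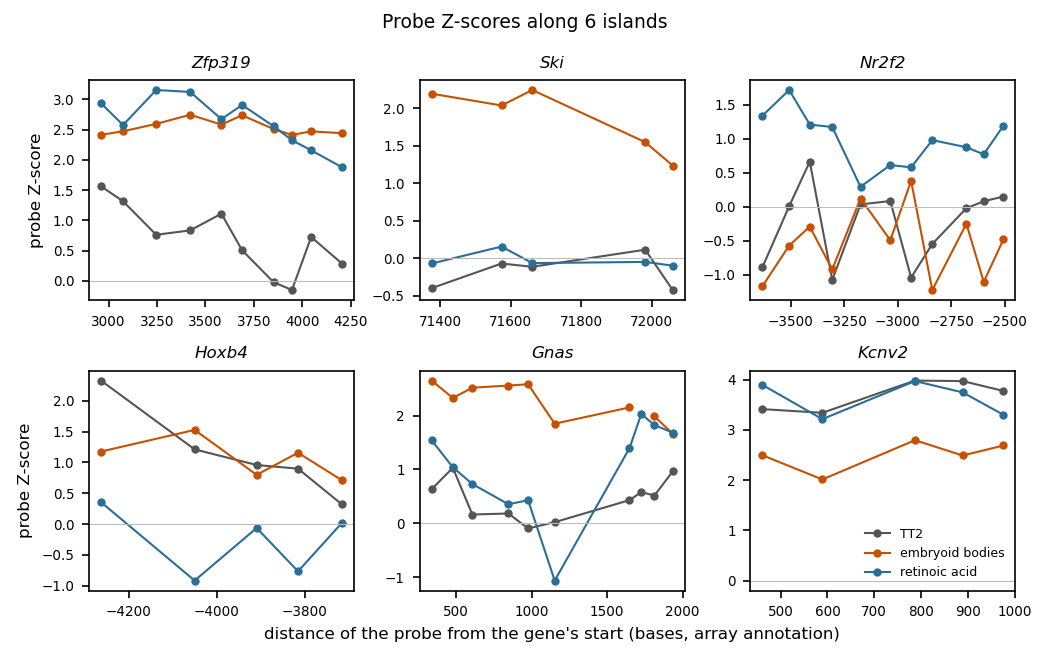
Probe Z-scores (vertical axes) by distance from the gene's start in bases (horizontal axes) in TT2, embryoid bodies and RA cells for 6 islands. At Zfp319 both treatments lie above TT2 at all 10 probes; Ski and Gnas are higher in embryoid bodies, Nr2f2 in RA cells, and Kcnv2 is lower in embryoid bodies and Hoxb4 in RA cells.

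Losses were fewer and smaller. Of the 259 islands lower in embryoid bodies, 117 did not differ in RA cells by more than 0.25 in the same direction, and their median scores were 3.02 in TT2, 2.11 in embryoid bodies and 3.12 in RA cells. They were highly methylated islands, with adult means above 0.75 at 97 (82.9%), and endoderm (2.19 and 2.22) and mesoderm (1.60) were lower than EB5 (2.91) too. Only 33 of the 117 embryoid body differences exceeded every replicate pair. At 41 of the 221 islands lower in RA cells, embryoid bodies did not differ by more than 0.25 in the same direction, and 35 of the 39 with a known distance (89.7%) lay within 1000 bases of a gene's start, against 75.7% of all islands. On chromosome X, 27 of 378 islands (7.14%) were lower in RA cells, against 1.46% of islands on autosomes, and the reason was not tested. Of the 221 RA losses, 57 remained past 0.75 with normexp on median signals, under which 234 islands in all were lower. That version changes the background correction and also replaces the processed ratios, and which of them moved the losses was not tested.

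Kcnv2, a silent subunit of potassium channels of the retina, was lower in embryoid bodies by more than any replicate pair (-1.20 against 1.16). Its island lies inside the gene at chr19:27397547-27398106 (mm9). Scores at Kcnv2 were 3.70 in TT2, 2.5 in embryoid bodies and 3.63 in RA cells. In the other ES lines and the EB5 derivatives, Kcnv2 scored 3.59 in EB5, 3.90 in J1, 1.90 and 2.51 in endoderm and 2.10 in mesoderm. Kcnv2 gave 3.37 and 3.60 in the teratomas, and 2.58, 2.09 and 2.04 in beta cells, Min6 and aTC. Embryos gave Kcnv2 scores of 3.04, 3.11, 3.65, 3.33 and 3.55 by age, and adult arrays a lowest, median and highest score of 2.85, 3.30 and 4.01. The island stayed methylated on every array, lowest in endoderm 1, aTC, Min6, mesoderm and embryoid bodies. Zfhx3, a zinc finger homeobox factor, scored 3.41 in TT2, 2.11 in embryoid bodies and 3.33 in RA cells, Grin2b, an NMDA receptor subunit, 3.06 in TT2, 1.80 in embryoid bodies and 3.49 in RA cells, and Fat1, an atypical cadherin, 3.71 in TT2, 2.5 in embryoid bodies and 3.88 in RA cells. At these 3 genes, unlike Kcnv2, a replicate pair differed by more than embryoid bodies and TT2. Mesoderm was low at each of them, with 1.64, 0.86 and 2.00.

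Among the losses in RA cells, Hoxb4 was the largest named: 1.14 in TT2, 1.07 in embryoid bodies and -0.27 in RA cells, on an island upstream of the start at chr11:96175762-96176362 (mm9). It was high in EB5 (1.58) and in endoderm (1.78 and 1.08) and low in all embryos (at most 0.048). With J1 as the reference, a file in doubt, the RA difference at Hoxb4 changed sign, to 0.42. Dnm1l, the dynamin that divides mitochondria, scored 0.35 in TT2, 0.21 in embryoid bodies and -0.69 in RA cells, and Tacr3, the neurokinin B receptor, 0.38 in TT2, 0.75 in embryoid bodies and -0.49 in RA cells. Caprin2, an RNA-binding protein gene, scored -0.75 in TT2, -0.90 in embryoid bodies and -1.90 in RA cells, and its RA score lay below the -1.0 of the lowest adult array. In limma the treated arrays were lower than the embryos at Caprin2 by -0.90 (SE 0.212, adjusted p = 0.00754), a call lost with normexp (-0.85) and without RA cells (-0.40).

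Lower in both treatments were Hivep1, Neo1, Phip, Ncoa7 and Hoxc4. Hivep1 is a zinc finger factor that binds kappa-B sites, and its island covers the gene's start at chr13:42147036-42148169 (mm9). Its promoter is shown because this start had a lower score after both treatments; it was taken from RefSeq on build GRCm38.p6 at chr13:42051771-42052070, plus strand, 250 bases before to 50 after the start, with the 48 CG pairs in capitals:
Hivep1: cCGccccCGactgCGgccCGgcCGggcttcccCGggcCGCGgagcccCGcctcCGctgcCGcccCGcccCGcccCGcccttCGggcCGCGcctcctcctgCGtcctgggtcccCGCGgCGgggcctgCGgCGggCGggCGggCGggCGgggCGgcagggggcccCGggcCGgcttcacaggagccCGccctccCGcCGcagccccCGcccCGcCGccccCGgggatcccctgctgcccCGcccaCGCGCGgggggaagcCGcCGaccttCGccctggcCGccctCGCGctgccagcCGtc
All 7 genes looked up for a promoter matched 1 entry each, and the 7 promoters shown hold 12 to 48 CG pairs, where the median over all 32851 promoters of this length is 7 and 94.6% hold at least 1. The Hivep1 island scored 0.55 in TT2, -0.46 in embryoid bodies and -0.33 in RA cells, beside 0.17 in EB5 and 0.30 in J1. The Hivep1 scores were -0.47 and -0.69 in endoderm, -0.31 in mesoderm, -0.27 and -0.014 in teratomas, and -0.015, -0.15 and -0.55 in beta cells, Min6 and aTC. By age, Hivep1 scored 0.40, 0.059, -0.10, -0.12 and -0.0073 in embryos, while adult arrays reached from -0.43 through a median of -0.16 to 0.19. TT2 was the highest of the 34 arrays, and both treated arrays lay near the lowest, with endoderm and aTC.

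Ncoa7, a coactivator of nuclear receptors, scored 0.17 in TT2, -0.67 in embryoid bodies and -0.84 in RA cells, and Phip, a bromodomain protein, 0.034 in TT2, -0.82 in embryoid bodies and -0.98 in RA cells. At Hivep1, Phip and Ncoa7 both differences exceeded every replicate pair, and at Neo1 and Hoxc4 they did not. Neo1, the netrin receptor neogenin, scored 0.14 in TT2, -0.81 in embryoid bodies and -0.73 in RA cells. Hoxc4 scored 1.38 in TT2, 0.49 in embryoid bodies and 0.30 in RA cells, while EB5 gave 0.66 and endoderm 1.98 and 0.91. With J1 as the reference, a file in doubt, the RA difference at this island changed sign, to 0.81. Another Hoxc4 island was higher in RA cells, with 0.80 in TT2, 0.88 in embryoid bodies and 1.82 in RA cells. With normexp, 8 of the 36 shared losses remained past 0.75 in both treatments, and with quantile normalization 25.

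Genes of the undifferentiated state were counted by a list of 34, of which 18 had 27 islands. Embryoid bodies were higher at 6 of the 27 (22.2%, against 7.18% of all islands) and RA cells at 9 (33.3%, against 5.70%), 5 of them shared, and none was lower in either. The median difference was -0.080 for embryoid bodies and 0.24 for RA cells, beside -0.045 and -0.041 over all islands, and the embryoid body median lay at -0.16 to 0.036 under 5 other ways of processing (quantile normalization, normexp, the deposited table, dim probes left out, median of probes). RA gains numbered 4 to 8 under these. Against EB5 in place of TT2 the gains were 5 and 7. With J1 as the reference, embryoid bodies were higher at 2 and lower at 7 and RA cells higher at 2 and lower at 3, with 0 shared gains.

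Esrrb, an orphan nuclear receptor of the ES cell network, has an island inside the gene at chr12:87810864-87811528 (mm9). Esrrb scored -0.020 in TT2, 1.69 in embryoid bodies and 1.18 in RA cells, and -0.25 and 2.46 in EB5 and J1. For Esrrb, endoderm gave 1.94 and 1.88, mesoderm 1.75, the teratomas 1.94 and 2.19, and beta cells, Min6 and aTC 1.83, 1.13 and 1.34. Esrrb scored 1.98, 2.72, 2.95, 2.65 and 2.71 in the embryos in order of age, and 2.03 at the lowest, 2.42 at the median and 3.03 at the highest of the 16 adult arrays. TT2 and EB5 were low and all other arrays were high. The treated arrays were still lower than the embryos in limma, by -1.16 (SE 0.25, adjusted p = 0.00346), and both lay below all 5 embryos. The Esrrb call is lost with normexp (-0.92) and without RA cells (-0.91). Prdm14, a repressor that guards the undifferentiated state, scored -0.30 in TT2, 0.94 in embryoid bodies and 0.78 in RA cells, beside 1.58 and 1.58 in endoderm, and no embryo exceeded -0.092, a limma difference of 1.15 (SE 0.223, adjusted p = 0.00139). Tbx3, a T-box factor of ES cells and limbs, scored -0.037 in TT2, 1.54 in embryoid bodies and 1.81 in RA cells, within its widest replicate difference of 2.10. Sox2 scored -1.64 in TT2, -0.54 in embryoid bodies and 0.11 in RA cells on an island whose end lies at -7662 bases from the start. Its TT2 score was the lowest of the ES lines (EB5 -0.13, J1 -0.95), and the embryoid body difference turned negative with normexp and with EB5 in place of TT2. Larger islands of these genes differed little in embryoid bodies and RA cells: -0.080 and -0.00090 at Sox2 (21 probes), -0.056 and 0.23 at Esrrb (10 probes), -0.076 and 0.18 at Tbx3 (12 probes). A Tbx3 island of 6 probes was higher, by 1.03 and 0.81.

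Germline genes are a known class that keeps methylated promoters in body cells. The list of 54 had 28 islands, with median scores of 2.03 in TT2, 2.20 in embryoid bodies, 2.49 in RA cells, 2.80 in embryos and 2.71 in adult tissue. Above 0.75 were 21 of 28 already in TT2, 23 in embryoid bodies and 22 in RA cells. Embryoid bodies were higher at 7 (25%, against 7.18% of all islands) and lower at 2, and RA cells higher at 7 (against 5.70%) and lower at none. The RA count went down to 1 with quantile normalization, and the embryoid body median difference, 0.18, turned to -0.032 with normexp. With EB5 in place of TT2 gains numbered 7 in embryoid bodies and 6 in RA cells. With J1 as the reference, a file in doubt, embryoid bodies were higher at 3 and lower at 13 and RA cells higher at 0 and lower at 6. The median differences were then -0.70 and -0.28, so that the direction was another with this file. In limma 0 of the 28 passed an adjusted p of 0.05 against the embryos, where 5.39% of all islands were higher and 2.42% lower. An unadjusted p under 0.05 was found at 6 of the 28, and at 2777 of all 13651 islands.

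Dpep3, a membrane dipeptidase of the testis, was lower in embryoid bodies. Its promoter is shown because its island, chr8:108502836-108503481 (mm9), covers the start and scored high in TT2. RefSeq gives it on the minus strand of GRCm38.p6 at chr8:105979370-105979669, with 12 CG pairs in capitals:
Dpep3: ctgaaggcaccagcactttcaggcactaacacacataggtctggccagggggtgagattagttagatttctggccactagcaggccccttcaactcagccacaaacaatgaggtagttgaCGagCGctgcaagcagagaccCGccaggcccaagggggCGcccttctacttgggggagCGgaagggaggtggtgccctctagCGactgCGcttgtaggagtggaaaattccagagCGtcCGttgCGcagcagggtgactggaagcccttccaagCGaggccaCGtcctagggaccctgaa
Scores at Dpep3 were 3.78 in TT2, 2.59 in embryoid bodies and 3.28 in RA cells. In the other ES lines and the EB5 derivatives, Dpep3 scored 3.82 in EB5, 3.64 in J1, 2.38 and 2.16 in endoderm and 2.08 in mesoderm. Dpep3 gave 3.45 and 3.33 in the teratomas, and 2.5, 1.86 and 1.78 in beta cells, Min6 and aTC. Embryos gave Dpep3 scores of 2.98, 2.81, 3.41, 3.48 and 3.61 by age, and adult arrays a lowest, median and highest score of 2.64, 3.16 and 3.57. The lowest arrays were aTC, Min6, mesoderm, endoderm, beta cells and embryoid bodies, and the embryoid body difference of -1.19 exceeded the widest replicate difference of 0.740. Boll, a translation factor of meiosis, scored 0.53 in TT2, 2.14 in embryoid bodies and 0.85 in RA cells. Tdrd6, a protein of the chromatoid body, scored 0.87 in TT2, 2.02 in embryoid bodies and 1.28 in RA cells. Syce2, part of the synaptonemal complex, scored 0.0030 in TT2, 1.07 in embryoid bodies and 0.42 in RA cells, and endoderm and mesoderm lay below 0 there. In limma Syce2 was higher in the TT2 derivatives than in the EB5 derivatives by 0.96 (SE 0.198, adjusted p = 0.0108), with both arrays above all 3. Syce2 is not called without embryoid bodies (0.63), nor with the slide (0.82) or the scan day (1.0) as a fixed term.

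Retinoic acid acts by binding receptors of the Rar and Rxr families, which switch on genes such as those for its own breakdown. Of 36 genes of this pathway, 22 had 39 islands. Embryoid bodies were higher at 3 (7.69%) and RA cells at 4 (10.3%), 2 of them shared, beside 7.18% and 5.70% of all islands. The median difference of RA cells was 0.036 and lay at -0.081 to 0.047 under the other ways of processing, so that it has no stable sign. Meis1, a homeobox partner of Hox proteins, scored -0.41 in TT2, -0.099 in embryoid bodies and 0.84 in RA cells on an island upstream at chr11:18927255-18927736 (mm9). RA cells were the highest array there, above 0.59 in endoderm and 0.088 in adult tissue, and beyond every replicate pair. A larger Meis1 island, of 12 probes, differed by -0.20 in embryoid bodies and -0.18 in RA cells. Nr2f2, an orphan receptor induced by retinoic acid, scored -0.24 in TT2, -0.55 in embryoid bodies and 0.97 in RA cells over 11 probes, inside its widest replicate difference of 1.49.

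Hox genes set position along the body axis, and retinoic acid is known to switch on those at the front of each cluster. The 37 genes had 66 islands. None of the 66 was higher in embryoid bodies and 2 were lower, while RA cells were higher at 16 (24.2%, against 5.70% of all islands) and lower at 3. The RA count was 9 to 17 under the other ways of processing, lowest with normexp, and 13 with EB5 in place of TT2. With J1 it was 18, and embryoid bodies had 6 gains. Median differences were -0.071 and 0.11, the latter -0.023 with EB5 in place of TT2. Above 0.75 lay 7 islands in TT2, 5 in embryoid bodies, 9 in RA cells, none by the embryo mean and 7 by the adult mean. In limma 2 (3.03%, against 5.39%) were higher than in embryos and 0 lower. An unadjusted p under 0.05 was found at 12 of the 66, and at 2777 of all 13651 islands.

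Hoxb1, the Hox gene of the hindbrain, has an island of 9 probes that begins 86 bases past its start, at chr11:96227128-96228419 (mm9). The Hoxb1 island scored -0.60 in TT2, -0.14 in embryoid bodies and 0.82 in RA cells, beside -0.35 in EB5 and -0.18 in J1. The Hoxb1 scores were 0.88 and 0.92 in endoderm, 0.32 in mesoderm, 0.089 and -0.20 in teratomas, and -0.38, 0.12 and 0.45 in beta cells, Min6 and aTC. By age, Hoxb1 scored -0.62, -0.60, -0.66, -0.49 and -0.30 in embryos, while adult arrays reached from -0.53 through a median of 0.046 to 1.48. RA cells, endoderm and some adult arrays were above 0.75, and TT2 and all embryos below 0. Its RA difference of 1.42 narrowly exceeded the widest replicate pair, 1.33. Hoxa11, a Hox gene of the limb and uterus, scored -1.12 in TT2, -0.83 in embryoid bodies and 0.65 in RA cells, and Hoxc11 -1.03 in TT2, -0.62 in embryoid bodies and 0.66 in RA cells. Adult tissue varied more than that at these genes, up to 2.51 and 1.41, and replicate pairs differed by up to 3.57 and 1.93. Among the losses were an island of Hoxb4 and an island of Hoxc4. With J1 as the reference, their RA differences changed sign, to 0.42 and 0.81. Another Hoxc4 island was among the RA gains, 1.02 above TT2.

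Neural genes are of interest because the treatment with retinoic acid was meant to give neuro-ectoderm. Their list of 68 had 147 islands. RA cells were higher at 21 (14.3%, against 5.70%) and lower at 1, and embryoid bodies higher at 5 (3.40%, against 7.18%) and lower at 6. RA gains numbered 11 to 22 under the other ways of processing, and 25 with EB5. With EB5 embryoid bodies were higher at 10 and lower at 10, where all islands had 1203 and 541, and 7 gains were shared. With J1 as the reference gains numbered 42 in RA cells and 27 in embryoid bodies. Median differences were -0.20 in embryoid bodies and 0.087 in RA cells. Islands above 0.75 numbered 16 in TT2, 18 in embryoid bodies and 30 in RA cells, where the embryo mean had 2 and the adult mean 2. In limma 30 of the 147 (20.4%) rose above embryos and 1 fell below, against 5.39% and 2.42% of all islands.

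Zic4, a zinc finger factor of the cerebellum, has an island of 7 probes inside the gene at chr9:91273260-91274093 (mm9). Zic4 scored -0.29 in TT2, -0.55 in embryoid bodies and 1.31 in RA cells, and -0.24 and -0.46 in EB5 and J1. For Zic4, endoderm gave -0.20 and -0.26, mesoderm -0.69, the teratomas -0.12 and 0.26, and beta cells, Min6 and aTC -0.74, 0.61 and 0.30. Zic4 scored -0.63, -0.75, -0.67, -0.56 and -0.57 in the embryos in order of age, and -0.75 at the lowest, -0.39 at the median and 0.27 at the highest of the 16 adult arrays. RA cells were above 0.75, and no other array was. The difference exceeded the widest replicate pair, 1.59 against 1.03. Tlx1, a homeobox factor of sensory neurons and spleen, scored -0.41 in TT2, -0.57 in embryoid bodies and 0.99 in RA cells, and endoderm 1 was as high at 0.99. Lhx2, a LIM homeobox factor of forebrain and eye, scored 0.42 in TT2, -0.32 in embryoid bodies and 2.07 in RA cells. Pax6, the eye and forebrain regulator, scored -0.042 in TT2, 0.77 in embryoid bodies and 1.31 in RA cells against at most -0.56 in embryos, a limma difference of 1.91 (SE 0.496, adjusted p = 0.0154). Pax6 is not called without embryoid bodies (2.18), without RA cells (1.64) or with the slide as a random term (1.65). At Lhx2 and Pax6 replicate adult arrays differed by up to 2.03 and 1.94, more than the treated arrays and TT2. Other Pax6 islands differed in embryoid bodies and RA cells by -0.37 and 0.084 (17 probes), 0.00080 and 0.44 (7 probes) and -0.84 and 0.67 (3 probes).

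Regulators of primitive streak, mesoderm and endoderm had the largest number of RA gains of the 11 lists: 30 of 122 islands (24.6%, against 5.70%). RA cells were lower at 1. By share, the lists of the undifferentiated state (33.3%) and of germline genes (25%) were higher. With J1 as the reference the neural list had more RA gains, 42 against 38. Embryoid bodies were higher at 13 of the 122 and lower at 5, and 7 gains were shared. Over all islands, embryoid body gains came to 7.18%, embryoid body losses to 1.90% and shared gains to 2.62%. The RA count was 23 to 28 under the other ways of processing and 35 against EB5. Median differences were -0.13 and 0.19. From 20 islands above 0.75 in TT2 the number was 27 in embryoid bodies and 44 in RA cells, and 7 by the embryo mean. In limma 26 (21.3%) were higher than in embryos and 0 lower, against 5.39% and 2.42% of all islands. Of the 122, 52 had an unadjusted p under 0.05, as had 2777 of all 13651 islands. Hand1, a bHLH factor of heart and trophoblast, is named beside Foxf1 and Gata3 and scored 0.35 in TT2, 1.16 in embryoid bodies and 2.00 in RA cells. Embryos scored -0.49 to 0.12 at Hand1 and endoderm 1.40 and 1.05, and the treated arrays exceeded embryos by 1.86 (SE 0.370, adjusted p = 0.00177) in limma, both above all 5, a call lost without RA cells (1.44).

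Secreted signals and their inhibitors, of the Wnt, Bmp, Fgf, Gdf and Hedgehog families, had 105 islands. Gains came to 7 in embryoid bodies (6.67%) and 8 in RA cells (7.62%), 3 of them shared, against 7.18% and 5.70% of all islands, and losses to 4 and 1. Fgf17, a signal of the midbrain and hindbrain border, scored 0.045 in TT2, 1.37 in embryoid bodies and 1.55 in RA cells, beyond every replicate pair, while EB5 gave -0.44. Fgf8, a signal of the primitive streak and of the limb, scored 0.53 in TT2, 1.72 in embryoid bodies and 1.13 in RA cells, and embryos at most 0.29. In limma Fgf8 was higher than in embryos by 1.28 (SE 0.242, adjusted p = 9.79e-04), both arrays above all 5, but not without embryoid bodies (0.99). Nodal, the signal that starts mesoderm and endoderm, scored -0.78 in TT2, -0.67 in embryoid bodies and 0.26 in RA cells on an island over its start. Fgf13, an intracellular member, scored 0.47 in TT2, -0.31 in embryoid bodies and -0.65 in RA cells. With normexp the embryoid body gains of this list numbered 12. With EB5 in place of TT2 gains came to 11 in embryoid bodies and 13 in RA cells, 6 of them shared. All 13651 islands had 1203 and 791 gains with EB5.

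Imprinted genes had median scores near 0 in TT2 and both treatments, below normal tissue. Their 43 islands had 5 gains and 4 losses in embryoid bodies and 1 gain and 2 losses in RA cells. Over all islands, gains came to 7.18% and 5.70% and losses to 1.90% and 1.62%. The list had median differences of 0.020 and -0.11, and the sign of the embryoid body value changed with the processing (-0.027 to 0.095). Yet the median score was 0.089 in TT2, -0.017 in embryoid bodies and -0.12 in RA cells, against 1.94 in embryos and 2.07 in adult tissue. Above 0.75 were 5 of the 43 in TT2, 14 in embryoid bodies, 9 in RA cells and 25 by the embryo mean and by the adult mean alike. With J1 as the reference, embryoid bodies were lower at 22 and RA cells at 20. Of the 43, 22 were above 0.75 on all 21 embryo and adult arrays. Above 0.75 were 5 of these 22 in TT2, 10 in embryoid bodies, 6 in RA cells and 6 in EB5, and 12 were at or below it in TT2, embryoid bodies and RA cells alike. In limma 20 of 43 (46.5%) were lower in the TT2 derivatives than in embryos and 3 higher, against 2.42% and 5.39% of all islands.

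This was searched over all islands, after the values were seen. Above 0.75 on all 21 embryo and adult arrays were 950 islands, and 846 of them (89.1%) were also above it in TT2, embryoid bodies and RA cells. Only 8 of the 950 were below 0 in all 3, and all 8 are on the imprinted list: Plagl1, Grb10, Zrsr1, Igf2r, Mcts2, Peg10, Peg3 with Usp29, and Kcnq1. Over these 8 islands the median score was -0.57 in TT2, -0.48 in embryoid bodies, -0.73 in RA cells and -0.11 in EB5, and no score in endoderm or mesoderm passed 0.72. The teratomas, labelled J1, were above 0.75 at all 8, with medians of 1.22 and 1.72. Quantile normalization gave 9 such islands and the median of probes 8; with normexp there were 3, 4 with the deposited table and 3 without dim probes, each time on the imprinted list.

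Plagl1 encodes a zinc finger regulator of growth, and its island over a start lies at chr10:12810275-12811158 (mm9). Mcts2 is a retrogene within H13, with its island at chr2:152512463-152513054 (mm9). Their promoters are shown because these 2 islands cover a gene's start and scored below 0 in the 3 arrays; RefSeq gives both on the plus strand of GRCm38.p6, Plagl1 at chr10:13090582-13090881 with 26 CG pairs and Mcts2 at chr2:152686898-152687197 with 25, in capitals:
Plagl1: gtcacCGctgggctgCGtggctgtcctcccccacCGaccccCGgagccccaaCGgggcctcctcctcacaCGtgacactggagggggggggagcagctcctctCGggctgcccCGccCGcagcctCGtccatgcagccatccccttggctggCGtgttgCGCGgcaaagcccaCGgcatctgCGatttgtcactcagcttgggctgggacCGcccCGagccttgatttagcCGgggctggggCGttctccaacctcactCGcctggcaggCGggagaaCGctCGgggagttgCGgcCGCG
Mcts2: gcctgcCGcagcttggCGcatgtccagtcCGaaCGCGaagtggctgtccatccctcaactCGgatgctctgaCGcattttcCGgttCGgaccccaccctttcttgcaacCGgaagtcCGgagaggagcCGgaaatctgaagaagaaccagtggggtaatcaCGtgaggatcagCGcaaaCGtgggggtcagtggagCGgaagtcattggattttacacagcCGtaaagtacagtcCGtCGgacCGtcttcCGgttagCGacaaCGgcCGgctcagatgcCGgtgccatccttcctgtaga
The Plagl1 island scored -0.050 in TT2, -0.18 in embryoid bodies and -0.15 in RA cells, beside 0.42 in EB5 and 3.03 in J1. The Plagl1 scores were 0.26 and 0.25 in endoderm, 0.41 in mesoderm, 1.22 and 1.74 in teratomas, and 1.47, 1.36 and 1.34 in beta cells, Min6 and aTC. By age, Plagl1 scored 2.13, 2.74, 3.14, 2.68 and 2.79 in embryos, while adult arrays reached from 1.89 through a median of 2.54 to 3.13. TT2, both treatments, EB5 and its derivatives were low, and the teratomas lay between them and normal tissue. Scores at Mcts2 were -0.79 in TT2, -0.33 in embryoid bodies and -0.077 in RA cells, while embryos and adult arrays did not go under 2.09.

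Zrsr1, a splicing factor retrogene, scored -1.59 in TT2, -0.95 in embryoid bodies and -1.07 in RA cells, and Peg10, a retrotransposon-derived gene of the placenta, -0.54 in TT2, -0.70 in embryoid bodies and -0.79 in RA cells. Grb10, an adaptor that restrains growth, scored -0.28 in TT2, -0.47 in embryoid bodies and -0.67 in RA cells, and the island shared by Peg3 and Usp29 -0.61 in TT2, -0.53 in embryoid bodies and -1.03 in RA cells. Kcnq1 has an island far inside the gene, which scored -0.39 in TT2, -0.49 in embryoid bodies and -0.61 in RA cells. Adult arrays did not go under 1.53 at any of these 5. Igf2r, the receptor that clears Igf2, has 2 islands on the list. The island inside the gene, chr17:12934260-12935460 (mm9), scored -0.79 in TT2, -0.27 in embryoid bodies and -0.90 in RA cells against at least 1.66 in adult tissue.

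The other Igf2r island, chr17:12961815-12962950 (mm9), covers the gene's start and is named by its embryoid body gain. Its promoter is shown to set it beside the low island inside the gene: RefSeq, GRCm38.p6, minus strand, chr17:12769657-12769956, with 34 CG pairs in capitals:
Igf2r: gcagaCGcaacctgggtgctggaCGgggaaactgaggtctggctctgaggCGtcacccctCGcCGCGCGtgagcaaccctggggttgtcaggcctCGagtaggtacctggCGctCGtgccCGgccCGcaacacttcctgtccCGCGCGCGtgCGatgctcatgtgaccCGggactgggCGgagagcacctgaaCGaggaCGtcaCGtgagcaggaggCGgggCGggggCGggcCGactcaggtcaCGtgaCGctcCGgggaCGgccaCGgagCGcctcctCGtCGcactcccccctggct
The promoter island of Igf2r scored 0.52 in TT2, 1.80 in embryoid bodies and 1.17 in RA cells, within a widest replicate difference of 1.99. Gnas, the G protein alpha subunit locus with several imprinted starts, scored 0.44 in TT2, 2.25 in embryoid bodies and 1.0 in RA cells over 10 probes at chr2:174110137-174111779 (mm9). Endoderm (2.09 and 2.29) and mesoderm (2.43) were as high as embryoid bodies, and embryos lay from 2.10 to 2.63. Cdkn1c, an inhibitor of the cell cycle, scored 0.56 in TT2, 1.91 in embryoid bodies and 0.41 in RA cells. Both gains exceeded every replicate pair. In limma the treated arrays were lower than the embryos at Gnas by -0.85 (SE 0.246, adjusted p = 0.0308) and at Cdkn1c by -1.33 (SE 0.307, adjusted p = 0.00630), with RA cells below all 5 embryos at both. Neither is called with normexp (-0.69 and -1.38) or without RA cells (-0.23 and -0.58). Gnas is also not called with quantile normalization (-0.74), the deposited table (-0.75) or dim probes left out (-0.92), or without the embryo of 9.5 (-0.85), 10.5 (-0.82), 11.5 (-0.83) or 12.5 days (-0.82). Trappc9, a trafficking gene that holds the imprinted Peg13, scored 3.04 in TT2, 1.77 in embryoid bodies and 2.30 in RA cells.

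**Figure D5:**
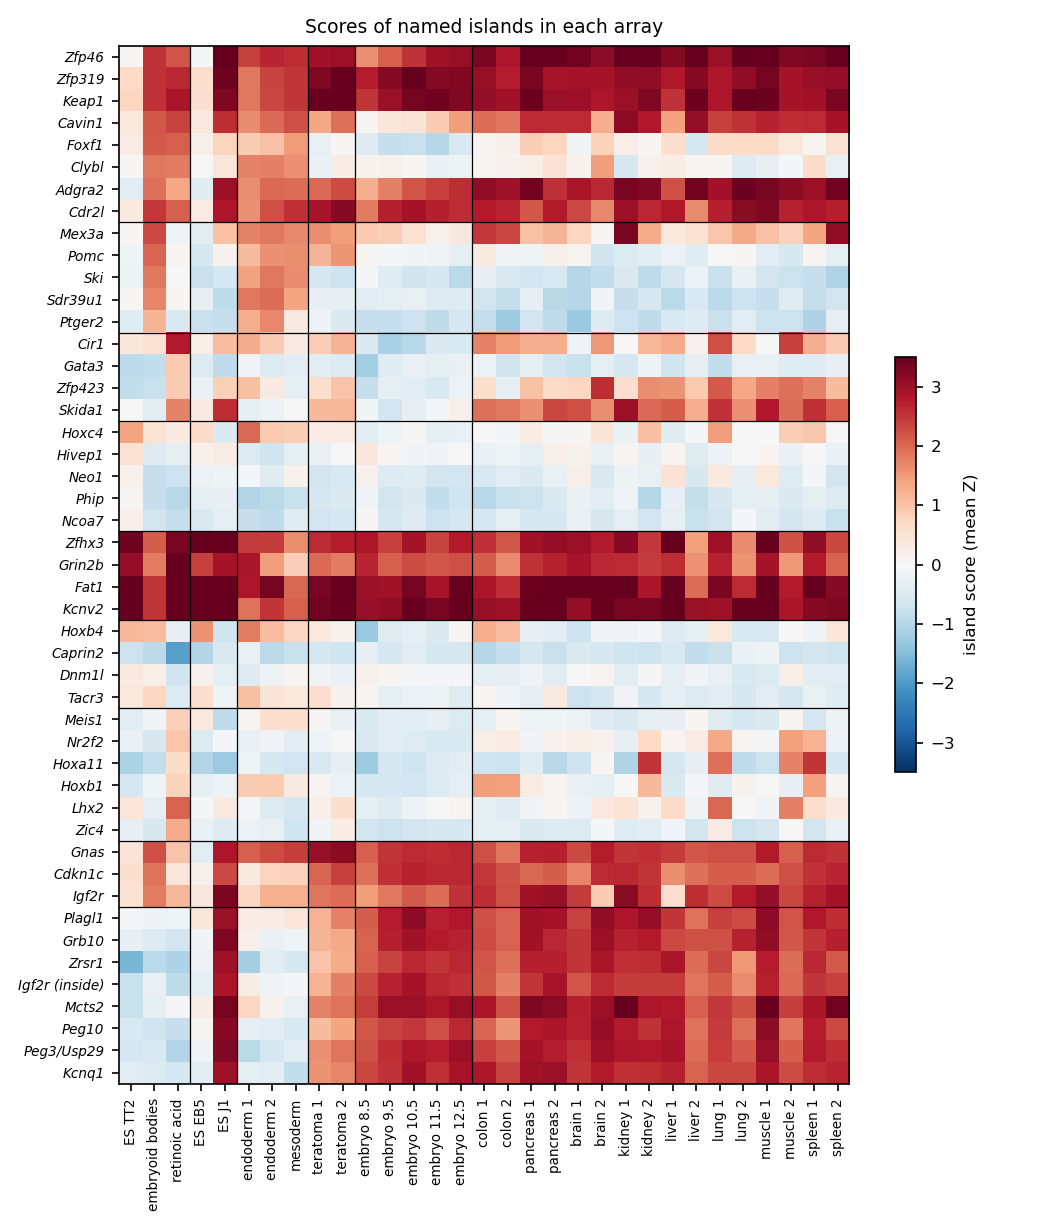
Island scores (colour, -3.5 to 3.5) of named islands by gene (vertical) in each array, pancreatic cells aside (horizontal); lines divide ES TT2 and its derivatives, the other ES lines, EB5 derivatives, teratomas, embryos and adult tissue. The lowest block holds the 8 imprinted islands below 0 in TT2, embryoid bodies and RA cells and above 0.75 on all 21 embryo and adult arrays.

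The converse group was as small. Below 0 on all 21 embryo and adult arrays were 3543 islands, and 3073 (86.7%) were also below 0 in TT2, embryoid bodies and RA cells. Only 8 were above 0.75 in all 3: Dlx4, Med10, Irx4, Ptger4, Cidea, Slc32a1, Tm2d1 and Cbln1, chosen after the values were seen. Over these 8 the median was 1.08 in TT2, 1.43 in embryoid bodies, 1.19 in RA cells and 0.094 in EB5, and -0.42 and -0.34 in the teratomas. With cutoffs of 0.5 and 0.25 the number was 29, and it was 2 with the deposited table, 4 without dim probes and 3 with the median of probes.

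Ptger4, another receptor for prostaglandin E2, has an island inside the gene at chr15:5192574-5192871 (mm9). Scores at Ptger4 were 1.40 in TT2, 2.11 in embryoid bodies and 1.64 in RA cells. In the other ES lines and the EB5 derivatives, Ptger4 scored 0.084 in EB5, -0.60 in J1, 1.41 and 0.83 in endoderm and 0.62 in mesoderm. Ptger4 gave -0.69 and -0.77 in the teratomas, and -0.54, -0.38 and 2.12 in beta cells, Min6 and aTC. Embryos gave Ptger4 scores of -0.64, -1.05, -1.11, -0.55 and -0.62 by age, and adult arrays a lowest, median and highest score of -1.32, -0.60 and -0.19. The lines TT2 and EB5 differed there, and all embryos and adult arrays were below 0. Irx4, a homeobox factor of the heart ventricle, scored 0.95 in TT2, 1.30 in embryoid bodies and 1.05 in RA cells, and Cbln1, a secreted organizer of synapses in the cerebellum, 0.99 in TT2, 0.80 in embryoid bodies and 1.12 in RA cells. Med10 and Tm2d1 have islands over their starts. Med10, a Mediator subunit, scored 1.17 in TT2, 1.17 in embryoid bodies and 1.04 in RA cells, and Tm2d1, a membrane protein, 0.92 in TT2, 1.09 in embryoid bodies and 1.25 in RA cells. In limma these were higher than in EB5 derivatives by 1.23 (SE 0.227, adjusted p = 0.00341) and 1.15 (SE 0.152, adjusted p = 8.53e-05). Both treated arrays lay above all EB5 derivatives at both genes. These calls are lost with the slide as a fixed term (0.78 and 1.32), where limma called 0 islands and 1100 had an unadjusted p under 0.05. That of Med10 is also lost with the scan day (0.79), with normexp (0.70) and without RA cells (1.30).

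Islands that tell the ES lines apart were counted in the cells made from them. Above 0.75 in TT2 and below 0 in EB5 were 32 islands, of which 28 were above 0.75 in embryoid bodies, 27 in RA cells and 16 in mesoderm from EB5. Of 20 islands with the converse pattern, 1 was above 0.75 in embryoid bodies, 2 in RA cells and 6 and 9 in endoderm. Against J1, 115 islands were high in TT2 and below 0 in J1, and 92 of these were above 0.75 in embryoid bodies and 74 in RA cells. EB5 derivatives were above 0.75 at 66 to 77 of the 115. Of 87 islands high in J1 and below 0 in TT2, 20 were above 0.75 in embryoid bodies, 19 in RA cells, 24 in mesoderm and 41 and 43 in the teratomas. TT2 and J1 as the line treated with retinoic acid cannot be told apart by these counts, as the J1 file is doubtful and the line of the teratomas is in question too. The array carries no expression markers, so that the cell types could not be checked further.

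As a group of 2 arrays, the TT2 derivatives were tested with limma against the 5 embryos. At an adjusted p under 0.05, 736 islands (5.39%) rose above the embryos and 331 (2.42%) fell below, and 2777 had an unadjusted p under 0.05. Without the embryoid body array the total was 523, with 330 higher and 193 lower. Without RA cells 669 were higher and 80 lower, and without the embryo of 10.5 days 210 were lower. With normexp 598 were higher and 148 lower.

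Against the 3 arrays derived from EB5, 66 islands (0.483%) were higher and 127 (0.930%) lower in the TT2 derivatives, and 1894 had an unadjusted p under 0.05. This count rests on single arrays: it was 707 without embryoid bodies, 36 without RA cells and 95 without endoderm 1. Limma called 7 islands with the scan day as a fixed term and 0 with the slide, where 1100 had an unadjusted p under 0.05. Parent line and kind of differentiation cannot be told apart here. Nap1l5, an imprinted retrogene chosen after its values were seen, is shown with its promoter because the derivatives of the lines differ at it. RefSeq gives the promoter on the minus strand of GRCm38.p6 at chr6:58907077-58907376 with 17 CG pairs in capitals:
Nap1l5: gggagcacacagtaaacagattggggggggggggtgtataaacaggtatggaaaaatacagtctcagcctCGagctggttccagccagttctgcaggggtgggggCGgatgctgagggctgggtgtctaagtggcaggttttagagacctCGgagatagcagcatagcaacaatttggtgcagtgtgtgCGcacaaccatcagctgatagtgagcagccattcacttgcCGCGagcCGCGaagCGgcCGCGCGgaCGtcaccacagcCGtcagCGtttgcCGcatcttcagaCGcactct
The Nap1l5 island scored -0.083 in TT2, 0.23 in embryoid bodies and -0.81 in RA cells, beside 0.071 in EB5 and 2.97 in J1. The Nap1l5 scores were 1.77 and 1.97 in endoderm, 1.72 in mesoderm, 1.61 and 1.71 in teratomas, and 1.56, 1.72 and 1.71 in beta cells, Min6 and aTC. By age, Nap1l5 scored 2.13, 2.83, 2.89, 2.91 and 2.82 in embryos, while adult arrays reached from 1.99 through a median of 2.70 to 3.06. Embryoid bodies and RA cells were as low as the ES lines TT2 and EB5, while endoderm and mesoderm were high, a limma difference of -2.10 (SE 0.265, adjusted p = 4.17e-05), with both arrays below all 3. Nap1l5 is not called with normexp (-1.18), the slide (-1.45) or the scan day (-1.52) as a fixed term. Atf4, a stress response factor also chosen after its values were seen, scored -0.23 in TT2, -0.73 in embryoid bodies and -0.46 in RA cells. It gave 2.16 in EB5, 0.97 and 1.25 in endoderm and 1.11 in mesoderm, a limma difference of -1.70 (SE 0.114, adjusted p = 2.16e-10). With the slide as a fixed term it was -1.91 and not called.

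Clustered protocadherins give neurons their surface identity, each from its own promoter. Of their 12 islands, embryoid bodies were higher at 3 and lower at 3 and RA cells higher at 1 and lower at 1, where gains over all islands came to 7.18% and 5.70% and losses to 1.90% and 1.62%. The embryoid body median difference was 0.43 and -0.064 to 0.38 under the other ways of processing, with the negative value from normexp, so that the median has no stable sign. With J1 as the reference, RA cells were higher at 3 and lower at 5. In limma 5 of the 12 (41.7%) were higher than in embryos and 4 (33.3%) lower, against 5.39% and 2.42% of all islands. Pcdhga12 scored 3.32 in TT2, 2.31 in embryoid bodies and 3.31 in RA cells, and EB5 only 0.17; with EB5 as the reference the embryoid body difference was of the other sign. In limma Pcdhga12 was higher than in embryos by 1.94 (SE 0.377, adjusted p = 0.00139), both arrays above all 5, a call lost without RA cells (1.44). Pcdhac1 scored 0.046 in TT2, 0.72 in embryoid bodies and -0.79 in RA cells. Neither island differed from TT2 by more than its widest replicate pair.

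Ribosomal protein genes, active in all cells, serve as a comparison. Their 89 islands had median scores of -0.42 in TT2, -0.42 in embryoid bodies and -0.31 in RA cells. Embryoid bodies were higher at 1 (1.12%) and lower at none, and RA cells higher at 7 (7.87%) and lower at 2, where gains over all islands came to 7.18% and 5.70%. RA gains numbered 2 to 5 under the other ways of processing, and 1 with EB5 in place of TT2. Rpl35 is the named member that differed by more than its replicates. Its promoter is shown as that of an unmethylated start with a lower score in RA cells, from RefSeq, minus strand of GRCm38.p6 at chr2:39005082-39005381 with 27 CG pairs in capitals:
Rpl35: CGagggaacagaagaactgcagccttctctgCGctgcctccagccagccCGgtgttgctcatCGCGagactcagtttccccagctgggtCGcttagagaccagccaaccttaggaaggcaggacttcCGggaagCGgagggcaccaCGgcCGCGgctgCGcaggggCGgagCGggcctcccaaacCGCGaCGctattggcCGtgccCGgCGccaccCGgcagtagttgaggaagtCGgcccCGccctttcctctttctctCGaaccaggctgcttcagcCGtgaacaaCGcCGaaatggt
Rpl35 scored -0.21 in TT2, -0.74 in embryoid bodies and -1.06 in RA cells, and -0.60 and -0.19 in EB5 and J1. For Rpl35, endoderm gave -1.04 and -0.71, mesoderm -0.86, the teratomas -0.22 and -0.36, and beta cells, Min6 and aTC -0.33, -0.62 and -0.68. Rpl35 scored -0.090, -0.60, -0.32, -0.41 and -0.38 in the embryos in order of age, and -0.99 at the lowest, -0.38 at the median and 0.036 at the highest of the 16 adult arrays. All arrays lay near or below 0, and RA cells and endoderm 1 were the lowest. Rps27a scored -1.09 in TT2, -0.37 in embryoid bodies and -0.26 in RA cells, with -0.19 in EB5.

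Genes that write, read and erase DNA methylation, with Polycomb genes, had 45 islands. Each treatment had 3 gains (6.67%, against 7.18% and 5.70%) and no loss, and 1 gain was shared. Kdm2b, a histone demethylase that binds unmethylated CG pairs, scored 0.051 in TT2, 2.27 in embryoid bodies and 0.37 in RA cells on an island inside the gene. Endoderm (1.47 and 2.13) and mesoderm (2.22) were high with embryoid bodies, and a replicate pair differed by up to 2.32.

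Over all 61 named islands, 28 embryoid body differences and 29 RA differences exceeded every replicate pair of the same island, 16 in both. They were chosen for large differences, and over all islands these numbered 1928, 1885 and 786 of 13651. The position along genes also separated the groups. Islands downstream of genes had gains at 11.7% in embryoid bodies and 11.0% in RA cells, and islands in promoters at 4.22% and 4.45%.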

How the data were processed

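Methylated and input DNA of 34 samples were hybridized on Agilent mouse CpG island arrays. Per the file headers, the probe values are log10 of the ratio of bound (Cy5) to input (Cy3) signal after background subtraction and dye normalization by Feature Extraction, version 10.9.1.1 for TT2 and RA cells and 10.5.1.1 for embryoid bodies. The deposited signal and background columns are intensity, as median pixel brightness with no normalization. The values of the deposited table are the authors' probe scores, Z-scores that take melting temperature into account according to the methods of the study. Probes with an outlier mark of the scanner software were not used.

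Z-scores within arrays were taken of the log10 ratio of 88737 probes on all arrays, and 416 without a position were left out. Positions are those of the TT2 file, whose header names mm9. Files on the older grids, that of the embryoid bodies among them, give another position for 96.3% of probes, so the TT2 positions were used throughout. Of 15311 runs of probes, 13770 had at least 3 probes, and 13651 of these had a score on all arrays. The authors' use of melting temperature was not repeated, so the scores here are another transform than the authors'. Of 12324 gene names, 9634 were current, 2448 were matched through synonyms and 242 were kept as given.

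Differences between single arrays were counted at 0.75 with no test. Adult tissue (16), embryos (5), EB5 derivatives (3) and TT2 derivatives (2) entered a limma fit with Benjamini-Hochberg adjustment over all islands, and the procedure was tested on simulated data. Different tissues, embryo ages, and embryoid bodies with RA cells counted as arrays of the same group. The spread behind each SE and adjusted p therefore includes differences between them and is not replicate error alone. Alternatives were quantile normalization, normexp with offset 50 on median signals, the deposited table, only probes with input well above background (78557 for the 3 arrays, 51220 for the fit), the median of probes, other thresholds, EB5 or J1 as the reference, slide or scan day as a term, and leaving out each array.

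For each gene the island with the largest difference is named, and other islands of the gene can lack that difference. Named islands have 1 gene name, at least 4 probes and at least 80% of probes moving in the direction, with 1 island a gene. They are the 8 largest shared gains, 5 gains in each treatment alone (other difference under 0.25), 5 shared losses, 4 losses in each alone, and up to 4 members past 0.75 from each of 11 lists: undifferentiated state, germline, retinoic acid pathway, Hox, neural, primitive streak with mesoderm and endoderm, secreted signals, imprinted, clustered protocadherins, ribosomal proteins, and methylation machinery. Of these, 3 islands are not reported here. Any other gene carries a remark that its values were seen first. The comparison, its members and the lists were chosen with earlier results of these data known. Island positions are mm9 and promoter positions GRCm38.p6, and no genome of mm9 was at hand for sequences of the islands themselves. The number of arrays limits the precision.

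Tools were Python 3.11.15, numpy 2.4.6, pandas 2.3.3, matplotlib 3.10.9, R 4.3.3, limma 3.58.1 and data.table in version 1.17.8.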

Additional observations from a re-analysis of the deposited data

Results flagged for a closer look

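At 4 islands the treatments lay past 0.75 from TT2 in opposite directions, each lower in embryoid bodies and higher in RA cells. These islands were chosen after their values were seen. Pdx1, a homeobox factor of pancreas and duodenum, differed from TT2 by -0.94 in embryoid bodies and 1.15 in RA cells. Ttll6, an enzyme that adds glutamate to tubulin in cilia, differed by -0.78 and 1.12. An island without a gene name on chromosome 14 gave -1.13 and 1.01, and another on chromosome 19 gave -0.84 and 1.14. The widest replicate difference was 1.72 at Pdx1, 0.735 at Ttll6, 1.73 at the island on chromosome 14 and 2.07 at that on chromosome 19. Only at Ttll6 did the differences from TT2 exceed it. With 1 array a treatment, the difference between the treatments was not tested.

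At 6 of the 61 named islands the embryo of 8.5 days lay far from the other 4 embryos, on a score scale. It was lower at Cdr2l with 1.82, at Gata3 with -1.20, at Boll with 1.69, at Gnas with 2.10 and at Cdkn1c with 1.91, and higher at Hand1 with 0.12. Chance marks about 1 in 20 groups in this way, or 3.05 of 61. All 6 were at the embryo of 8.5 days, which shared a slide with TT2. The part of the slide and of the age in these values was not tested.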

How the results depend on the processing

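No paired analysis was possible because each treatment and TT2 had 1 array. The planned normexp correction on mean signals was not run, since the TT2 and RA files hold no mean signals. For the differences from TT2, its version on median signals was chosen after seeing the data. So were the slide and scan day as fixed terms and all alternatives for the islands apart from normal tissue. For the limma fits, normexp on median signals had been planned. Input signal over background, lowest in RA cells, limits how well dim probes show a difference.

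At a threshold of 0.5, embryoid bodies differed from TT2 at 2888 islands, RA cells at 2740 and both alike at 1122, and at a threshold of 1 these were 623, 421 and 166. The changed threshold itself accounts for these. The count for both, 394 gains and losses, was 621 with normexp, 635 with the median of probes and 630 with EB5 in place of TT2, and RA cells differed at 1615 islands with the median of probes. The cause was not tested. The embryoid body total stayed between 1124 and 1788 under the other alternatives, and was 1936 with J1 as the reference, and the RA total stayed between 866 and 1281. Losses in RA cells went from 221 to 670 with the median of probes, 372 without dim probes, 393 with EB5 and 552 with J1, and losses in embryoid bodies from 259 to 619 with the median of probes, 492 with normexp, 541 with EB5 and 811 with J1.

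Islands below 0 in the 3 arrays and above 0.75 in all embryos and adult tissue numbered 3 with normexp, 4 with the deposited table (6696 islands) and 3 without dim probes (8828 islands). Islands with the converse pattern numbered 29 with cutoffs of 0.5 and 0.25, 2 with the table, 4 without dim probes and 3 with the median of probes. Beyond the fewer islands of the table and the dim filter, the cause was not tested.

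TT2 derivatives differed from embryos at 523 to 1053 islands when 1 array was left out (lowest without embryoid bodies, 330 higher and 193 lower) and at 722 to 906 under the other alternatives. With normexp the lower islands numbered 148 against 331, and without dim probes (8751 islands) the higher numbered 423 against 736. From EB5 derivatives they differed at 36 to 707 islands when 1 array was left out. Where an array is left alone in its group, the fit assumes that it varies like the other groups. The latter count was 128 with the table (6684 islands), 97 without dim probes (8751 islands), 7 with the scan day as a fixed term and 0 in limma with the slide, where 1100 had an unadjusted p under 0.05, and the cause was not tested.

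Of 122 named differences, only those of at least 0.75 in size were checked for their sign. All of these kept the reported sign with quantile normalization and the median of probes. Those that could be scored also kept it with the table and without dim probes, where 115 and 116 of the 122 had a score. With normexp the sign of such a difference changed at Sox2 in embryoid bodies (-0.30). With EB5 in place of TT2 it changed at Sox2 (-0.41) and Pcdhga12 (2.14) in embryoid bodies and at Rps27a in RA cells (-0.071). With J1 in place of TT2, RA differences of at least 0.75 changed sign at 10 of the 61 islands: Zfp46 (-1.86), Zfp319 (-0.78), Keap1 (-0.41), Cavin1 (-0.23), Adgra2 (-1.67), Cdr2l (-0.76), Skida1 (-0.84), Hoxc4 (0.81), Hoxb4 (0.42) and Esrrb (-1.27). The cause was not tested.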

Other observations

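The J1 array stood apart from TT2 and EB5 at imprinted genes and was above 0.75 at all 22 imprinted islands that are high in every embryo and adult array, where TT2 was above it at 5 and EB5 at 6. Its log10 ratios correlated with its deposited column at 0.113 over 48400 probes, while the other 33 arrays gave 0.894 to 0.991. Among all arrays, its probe scores correlated best with pancreas 2, at 0.878. The RA cells, for which the study's methods name J1 and another passage TT2 as the line, correlated with the J1 array at 0.845 over islands and with TT2 at 0.876. Correlations over probes or islands describe single pairs of arrays, and probes and islands are not independent.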
